A study of Mus musculus with 15 samples.

Results

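CC chemokines are small secreted proteins that guide the movement of monocytes, T cells, eosinophils and other leukocytes by binding receptors of the CCR family, and they take their name from adjacent cysteines near the amino terminus. In bone marrow, CCL2 acting on CCR2 is known for releasing monocytes into the blood, while CCL3 and its close relatives have been studied as signals between leukemic cells and the marrow around them. In mice, Ccl6 and Ccl9 are products of myeloid cells and act on CCR1. The genes described here are Ccl2, Ccl3, Ccl4, Ccl5, Ccl6, Ccl7, Ccl9, Ccl12, Ccl17 and Ccl22, chosen by name. They are 10 of the 20723 genes listed in at least 1 of the 4 deposited tables of normalized counts. All 10 had a row in both tables with temozolomide (TMZ) libraries, and 7 had a row in the untreated tables, where Ccl7, Ccl12 and Ccl17 were absent.

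The 15 RNA-seq libraries came from total bone marrow of leukemic C57BL/6 mice, in 5 groups of 3. Every group carried MLL-AF9, a fusion oncogene of acute myeloid leukemia, which had been introduced by retrovirus into lineage-depleted cells before transplantation. The marrow was taken after the fourth round of transplantation into irradiated hosts, so host cells could remain beside the leukemic ones. GFI1 is a transcriptional repressor of blood formation, and all 3 genotypes express human GFI1: GFI1 KD/KD mice (called KD) at 10 to 20% of the gene's expression, GFI1 36N/36N mice (called 36N) as the 36N variant, and GFI1 KI/KI mice (called 36S) from the murine Gfi1 locus. Leukemic marrow cells of 36N and 36S were also treated with TMZ, an alkylating drug, at 50 µg/ml for the last 20 h before RNA isolation. The library titles begin with S and the numbers 7 to 9 for KD, 4 to 6 for 36N and 1 to 3 for 36S, and these numbers name the libraries below. In both untreated tables the columns numbered 1 to 3 are headed WT, and they were taken as 36S from these numbers and from the series title, which calls the knock-in wildtype. Every untreated comparison with 36S rests on that match. The labels do not say whether the untreated cells were held for the same 20 h, so an effect of TMZ and one of holding the cells cannot be told apart.

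The values are normalized counts as the authors deposited them, with column totals from 11265945 to 24264818. Read depth behind a value is unknown. Libraries of 1 group correlated with each other at a Pearson r of 0.962 to 0.977 over genes. Gfi1 had a row only in the table of 36N with and without TMZ, with 504 to 723 normalized counts with TMZ and 367 to 565 without, so the KD label could not be checked on it. The genotypes express human GFI1 and the processing notes name the mouse build mm10, so what this row reads is unknown. Summed over their lists, markers of monocytes and macrophages (Lyz2 and Csf1r among the high ones) and of neutrophils (Elane and Mpo) were high in all untreated groups. Other markers of these lists were low. Cd14 averaged 34.0 normalized counts in untreated 36N and 56.2 in 36S, and Ly6g, a neutrophil marker, 16.1 and 46.1. The labels do not say that libraries of a group came from separate mice. The TMZ columns set against each other by genotype are headed with a further number, different for each library, with no meaning given. After the name of the fusion gene the titles carry the number 1 in all KD and 36N libraries and 1 to 3 in the 36S libraries, with no meaning given, and the p-values measure only the spread between these libraries. In bulk marrow, fewer cells of a type and less RNA per cell cannot be told apart.

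The codons for the adjacent cysteines show what the family shares. Each member held exactly 1 in-frame pair of adjacent cysteine codons in its coding sequence (GENCODE M21 transcripts, mm10), printed below for 9 of them in capitals within 30 bases, 5′ to 3′ on the coding strand.
Ccl2: gccccactcaccTGCTGCtactcattcacc
Ccl7: aatgcatccacaTGCTGCtatgtcaagaaa
Ccl12: accccagtcacgTGCTGTtataatgttgtt
Ccl4: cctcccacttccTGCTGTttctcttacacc
Ccl5: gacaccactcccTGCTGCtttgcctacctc
Ccl6: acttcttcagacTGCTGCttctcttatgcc
Ccl9: gactcttcagatTGCTGCctgtcctataac
Ccl17: gtaggccgagagTGCTGCctggattacttc
Ccl22: gaagacagtatcTGCTGCcaggactacatc
Ccl4 and Ccl12 end the pair with TGT and the other 7 printed with TGC. The pair lies at codons 33 to 37 in Ccl2, Ccl3, Ccl4, Ccl5, Ccl7, Ccl12 and Ccl22, at codons 43 and 44 in Ccl17, at codons 50 and 51 in Ccl6, and at codons 57 and 58 in Ccl9. The flanks of Ccl6 and Ccl9 resemble each other, and this pair had the highest coding identity among the members, at 70.64% over 344 aligned bases with a longest identical run of 23 bases. Ccl3 and Ccl4 shared 69.96%, and Ccl2, Ccl7 and Ccl12 shared 66.67 to 68.38% pairwise. The sources used here do not say how reads were split between such copies.

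The members also lie together. Ccl2 (chr11:82035571-82037453), Ccl7 (chr11:82045712-82047525) and Ccl12 (chr11:82101845-82103400) run on the plus strand of chromosome 11, with 8.3 kb between Ccl2 and Ccl7. A second cluster begins 1422.4 kb further on with Ccl5 (chr11:83525778-83530518), Ccl9 (chr11:83572919-83578636), Ccl6 (chr11:83587882-83593087) and Ccl3 (chr11:83647844-83649355) on the minus strand, and ends with Ccl4 (chr11:83662584-83664683) on the plus strand. Only 9.2 kb separate Ccl9 from Ccl6, and 13.2 kb separate Ccl3 from Ccl4. Ccl22 (chr8:94745590-94751699) and Ccl17 (chr8:94810453-94812036) are neighbours on chromosome 8, 58.8 kb apart.

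Ccl6 and Ccl9 gave most of the members' signal in every library, so the 250 bases before their RefSeq starts (GRCm38.p6, minus strand, 5′ to 3′) are shown, with capitals for matches on either strand to the kappaB pattern of NF-kappaB (GGG, then any 5 bases, then CC), to AP-1 (TGANTCA), to PU.1 (GAGGAA) or to C/EBP (TTGCNNAA).
Ccl9, chr11:83578637-83578886: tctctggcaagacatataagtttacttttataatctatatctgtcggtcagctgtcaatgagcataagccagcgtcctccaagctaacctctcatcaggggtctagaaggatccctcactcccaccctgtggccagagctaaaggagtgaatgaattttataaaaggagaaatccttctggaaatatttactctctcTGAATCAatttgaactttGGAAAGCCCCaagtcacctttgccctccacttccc
Ccl6, chr11:83593088-83593337: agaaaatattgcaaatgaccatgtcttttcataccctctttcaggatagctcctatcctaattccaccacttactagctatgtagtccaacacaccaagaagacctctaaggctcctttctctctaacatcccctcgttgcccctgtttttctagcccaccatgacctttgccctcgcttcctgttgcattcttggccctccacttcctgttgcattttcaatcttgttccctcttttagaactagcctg
The Ccl9 window held an AP-1 match 53 bases and a kappaB match 35 bases before the start, which do not overlap. Its window also held the TATA letters (TATAAA) 224, 94 and 92 bases before the start, of which the last pair overlap. The Ccl6 window held none of these patterns, nor the GATA letters AGATAA, the GFI1 letters AAATCAC or the ISRE pattern, a GAAA followed after any 2 bases by another GAAA. Of 32851 promoter windows of this length, 45.8% held the kappaB pattern, 6.75% AP-1, 23.25% PU.1, 9.56% C/EBP, 2.98% ISRE, 9.99% GATA, 2.75% GFI1 and 12.37% TATA, so the kappaB letters are common in any window. The windows of Ccl6 and Ccl9 shared 13 bases, gccctccacttcc, and were 56.25% identical over 224 aligned bases. Among the 6 members with an entry, the GFI1 letters were found only in Ccl12, 126 bases before its start and overlapping a PU.1 match. A match is a description of letters and not evidence of binding.

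In untreated KD marrow 4 members rose against 36S: Ccl5, Ccl6, Ccl2 and Ccl3. Values were tested with limma-trend on log2(normalized count + 1) for genes with at least 10 normalized counts in at least 3 libraries, with Benjamini-Hochberg adjustment over all genes and a threshold of 0.05. Of the 7 members listed, 6 passed the filter, 4 of them were called higher and 0 lower, where 6.61% of 13109 genes tested were called higher, 4.86% lower and 11.5% in either direction. The same 4 had every KD library above every 36S library, as had 15.7% of all genes, and 31.5% did not overlap in either direction. Ccl2 passed the filter only through the KD libraries. The median log2 fold change of the 6, Ccl2 included, was 1.45, against -0.01 over all genes. With Ccl2 set aside the middle log2 fold change is that of Ccl3 (0.92), and the calls are those of Ccl3, Ccl5 and Ccl6.

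**Figure D1:**
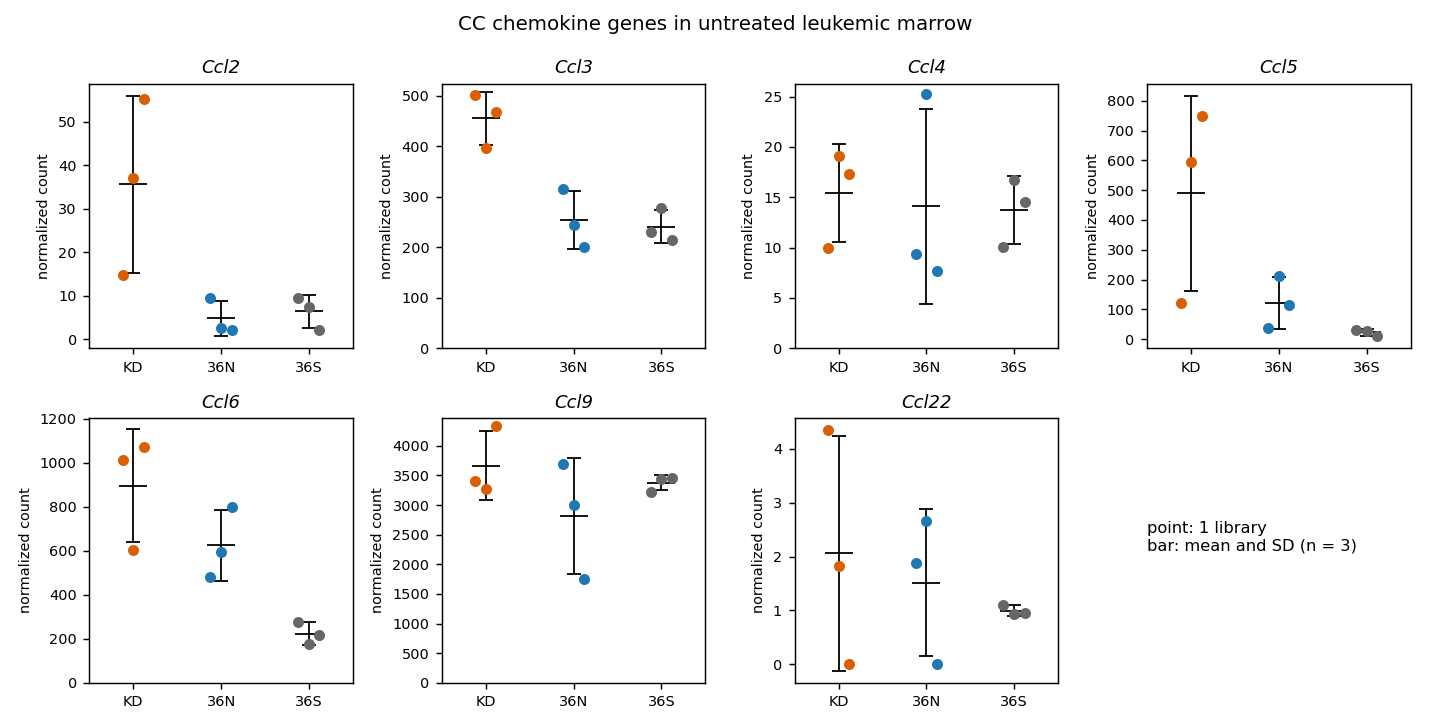
Normalized counts (linear axis, a scale for each gene) of the 7 listed members in untreated KD, 36N and 36S libraries, with a point per library and bars for mean and SD (n = 3). Ccl5 spans 121 to 750.2 normalized counts in KD, 39.2 to 214 in 36N and 10.6 to 30.6 in 36S, while Ccl9 overlaps between the groups.

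Among the CCR2 ligands, Ccl2, the monocyte attractant, had 14.6, 37.0 and 55.3 normalized counts in KD libraries 7, 8 and 9, against 9.42, 7.41 and 2.19 in 36S libraries 1, 2 and 3. All KD libraries were above all 36S libraries, although the level stayed low in both. The log2 fold change was 2.30 (SE 0.64, adjusted p = 0.046). The call was lost with libraries scaled to equal totals (adjusted p = 0.061) and without 36S library 2 or 3 (0.10 and 0.12). With any KD library left out Ccl2 no longer passes the filter, and with the filter relaxed to 2 libraries it was not called without KD library 8 or 9 (0.092 and 0.19).

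Ccl3 and Ccl4, attractants of monocytes and T cells, moved unequally. Ccl3, which binds CCR1, had 500.7, 397 and 469 normalized counts in KD, against 231, 277 and 215 in 36S. The groups did not overlap, with a log2 fold change of 0.92 (SE 0.17, adjusted p = 0.0077). Its neighbour Ccl4 had 9.91, 19.1 and 17.3 normalized counts in KD, against 10.1, 16.7 and 14.5 in 36S, which overlap. The log2 difference of Ccl4 was 0.13 (95% interval -0.89 to 1.15, adjusted p = 0.89).

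Ccl5, an attractant of T cells and monocytes that T and NK cells also make, had the largest change of the members, with 121, 596 and 750.2 normalized counts in KD and 30.6, 26.7 and 10.6 in 36S. The lowest KD library still lay above the highest 36S library. Its log2 fold change was 4.13 (SE 0.64, adjusted p = 0.0038), and 4.95 without KD library 7, the lowest of its group. T and NK cell markers moved with it: 4 of 10 tested were higher in KD (Cd3e, Cd3g, Gzma and Gzmb), 0 were lower, and the list's summed level was 273 to 944 in KD and 123 to 245 in 36S. Cd3e, a T cell receptor subunit, had 49.8, 168 and 242 normalized counts in KD libraries 7, 8 and 9, against 8.26, 15.8 and 23.7 in 36S libraries 1, 2 and 3. The order of libraries was that of Ccl5 in KD and the reverse of it in 36S. No marker of this list was at 0 in every library of either group. The part of T and NK cells in the Ccl5 result was not tested.

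Ccl6 had 1014, 603 and 1072 normalized counts in KD, against 277, 175 and 218 in 36S. Every KD library exceeded every 36S library, with a log2 fold change of 1.98 (SE 0.25, adjusted p = 0.0013). Its neighbour Ccl9 had 3401, 3269 and 4335 in KD, against 3228, 3447 and 3466 in 36S, and the groups overlapped. The log2 difference of Ccl9 was 0.11 (95% interval -0.22 to 0.43, adjusted p = 0.69), and -0.013 with equal totals. Ccl22, a CCR4 ligand, had 4.34, 1.83 and 0 normalized counts in KD, against 1.11, 0.924 and 0.952 in 36S, and did not pass the filter.

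Markers of other cells moved in the same libraries. Monocyte and macrophage markers were higher in KD for 8 of 11 tested, with sums of 94891 to 149345 in KD and 47830 to 52798 in 36S. Neutrophil markers were lower for 4 of 10, with sums of 29527 to 39689 in KD and 62402 to 192563 in 36S, where library 1 was the highest. Of the other lists, dendritic cell markers were higher for 3 of 7, eosinophil markers for 2 of 5, mast cell and basophil markers were higher for 2 and lower for 2 of 6, and B and plasma cell markers were lower for 2 of 7. The part of these cells in the Ccl2, Ccl3 and Ccl6 results was not tested.

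The calls among receptors and regulators of these ligands in KD against 36S stand beside 6.61% of all genes called higher and 4.86% lower. Among CC receptors, 2 of 6 tested rose: Ccr2, the receptor of Ccl2 and Ccl7, at 3377 ± 355 in KD and 1258 ± 239 normalized counts in 36S (SD, n = 3 each; log2 fold change 1.44, adjusted p = 7.2e-04), and Ccr1, a receptor of Ccl3, Ccl5, Ccl6 and Ccl9 (log2 fold change 1.08, adjusted p = 0.0041). Cx3cr1, the fractalkine receptor, rose (log2 fold change 0.89, adjusted p = 0.029) as 1 of 5 receptors of the other chemokine classes. Nfkb1, an NF-kappaB subunit, rose (0.76, adjusted p = 0.0050) as 1 of 15 cytokine and NF-kappaB genes. None of 2 other CC ligands or 6 ligands of the CXC, CX3C and XC classes passed the test, the lowest p-values being those of Ccl25 (-0.66, adjusted p = 0.22) and Cxcl14 (-1.44, adjusted p = 0.15), and 0 genes of these lists fell. With equal totals the median log2 fold change of all genes moved to -0.13, and the calls over all genes turned to 605 higher and 936 lower, against 866 higher and 637 lower as deposited.

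In untreated 36N marrow 1 member, Ccl6, rose against 36S. Of the 7 members listed 5 passed the filter, and 1 was called higher and 0 lower, where 2.55% of 13137 genes tested were called higher, 2.01% lower and 4.56% in either direction. The median log2 fold change of the 5 was 0.06, against -0.01 over all genes. The comparison shares its 36S libraries with that of KD.

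Ccl6 had 479, 597 and 797 normalized counts in 36N libraries 4, 5 and 6, against 277, 175 and 218 in 36S. The lowest 36N library lay above the highest 36S library. The log2 fold change was 1.47 (SE 0.22, adjusted p = 0.0074).

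Ccl5 had 39.2, 214 and 115 normalized counts in 36N, against 30.6, 26.7 and 10.6 in 36S. These groups did not overlap either, as was so for 13.1% of all genes in the upward direction and 26.9% in either, but the log2 fold change of 2.21 (SE 0.60, adjusted p = 0.078) did not pass the threshold. It passed without 36N library 4, the lowest of its group (log2 fold change 2.86, adjusted p = 0.027). Over all alternatives the adjusted p of Ccl5 lay between 0.027 and 0.23. T and NK cell markers summed to 167 to 263 in 36N and 123 to 245 in 36S, with 0 of 7 tested called.

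The other members overlapped between 36N and 36S. Ccl2 had 9.47, 2.63 and 2.17 normalized counts in 36N, against 9.42, 7.41 and 2.19 in 36S, and did not pass the filter, nor did Ccl22 with 1.88, 2.65 and 0 in 36N. Ccl3 had 315, 244 and 201 in 36N, against 231, 277 and 215 in 36S (log2 difference 0.06, 95% interval -0.39 to 0.50). Ccl4 had 9.35, 25.2 and 7.65 in 36N, with a log2 difference from 36S of -0.12 (95% interval -1.31 to 1.06). Ccl9 had 3693, 2997 and 1757 in 36N (log2 difference -0.33, 95% interval -0.85 to 0.19), with libraries 5 and 6 below every 36S library. Library 6 was also the highest of the 36N libraries for Ccl6, so the ratio of Ccl6 to Ccl9 ran over 0.130, 0.199 and 0.453 in 36N, against 0.0857, 0.0507 and 0.0630 in 36S.

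In 36N against 36S, 2.55% of all genes were called higher and 2.01% lower. Ccr1 rose (log2 fold change 0.62, adjusted p = 0.028) as 1 of 7 CC receptors and Cx3cr1 (1.47, adjusted p = 0.024) as 1 of 4 other receptors. Nfkb1 rose (0.70, adjusted p = 0.015) as 1 of 14 cytokine and NF-kappaB genes. None of 2 other CC ligands or 6 CXC, CX3C and XC ligands was called, the lowest p-values being those of Ccl27a (-0.42, adjusted p = 0.40) and Cx3cl1, the fractalkine gene (-2.13, adjusted p = 0.054). Dendritic cell markers were higher for 2 of 8 and summed to 2655 to 3145 in 36N and 1107 to 1792 in 36S. Monocyte and macrophage markers were higher for 2 of 11, neutrophil markers lower for 2 of 10, mast cell and basophil markers lower for 1 of 6, and 0 of 4 eosinophil and 0 of 7 B and plasma cell markers were called. Their part in the Ccl6 result was not tested.

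KD and 36N were compared directly, since the 36S columns of both untreated tables were identical. Ccl3 was higher in KD, as 1 of 6 members tested, where 2.03% of 13118 genes were called higher, 1.21% lower and 3.24% in either direction. Its log2 fold change was 0.86 (SE 0.19, adjusted p = 0.042), from the KD and 36N values given above, which did not overlap. The call was lost with equal totals (adjusted p = 0.074), without KD library 7 or 9 (0.14 and 0.18) and without 36N library 5 or 6 (0.16 and 0.10). Ccl2 passed the filter only through the KD libraries, being under 10 in every 36N library, so its values here depend on that filter. It was above 36N in every KD library, as were 12% of all genes (22.6% did not overlap in either direction), but was not called (log2 fold change 2.71, SE 0.67, adjusted p = 0.059). It passed without 36N library 4 (adjusted p = 0.048) and, with the filter relaxed to 2 libraries, without KD library 7 (0.047), while the call without 36N library 4 was not made under that relaxed filter. Monocyte and macrophage markers were higher in KD for 4 of 11, mast cell and basophil markers for 3 of 5, eosinophil markers for 2 of 5 and T and NK cell markers for 1 of 11, dendritic cell markers were higher for 1 and lower for 1 of 7, and neutrophil and B and plasma cell markers were lower for 4 of 10 and 2 of 6. Their part in the Ccl3 result was not tested.

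The remaining members overlapped between KD and 36N. The log2 difference of Ccl5 was 1.93 (SE 0.69, adjusted p = 0.17), and Ccl5 passed without KD library 7 (2.74, adjusted p = 0.036). The log2 difference of Ccl6 was 0.51 (SE 0.24, adjusted p = 0.29), and Ccl6 passed without KD library 8 (0.77, adjusted p = 0.037). Ccl4 and Ccl9 differed by 0.26 (95% interval -0.99 to 1.5) and 0.44 (95% interval -0.11 to 0.98) on the log2 scale. The median log2 fold change of the 6, Ccl2 included, was 0.68, against -0.01 over all genes. With Ccl2 set aside the middle value is that of Ccl6 (0.51). Ccr2 was higher in KD (log2 fold change 0.89, adjusted p = 0.028) as 1 of 7 CC receptors, while Cxcl12, the marrow niche ligand of CXCR4, was lower (-1.70, adjusted p = 0.0496) as 1 of 5 CXC, CX3C and XC ligands. Irf4, a transcription factor of lymphoid and dendritic cells, was lower (-1.32, adjusted p = 0.028) as 1 of 15 cytokine and NF-kappaB genes, and 0 of 2 other CC ligands and 0 of 5 other receptors were called. With equal totals the calls over all genes were 176 higher and 179 lower, against 266 higher and 159 lower as deposited.

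**Figure D2:**
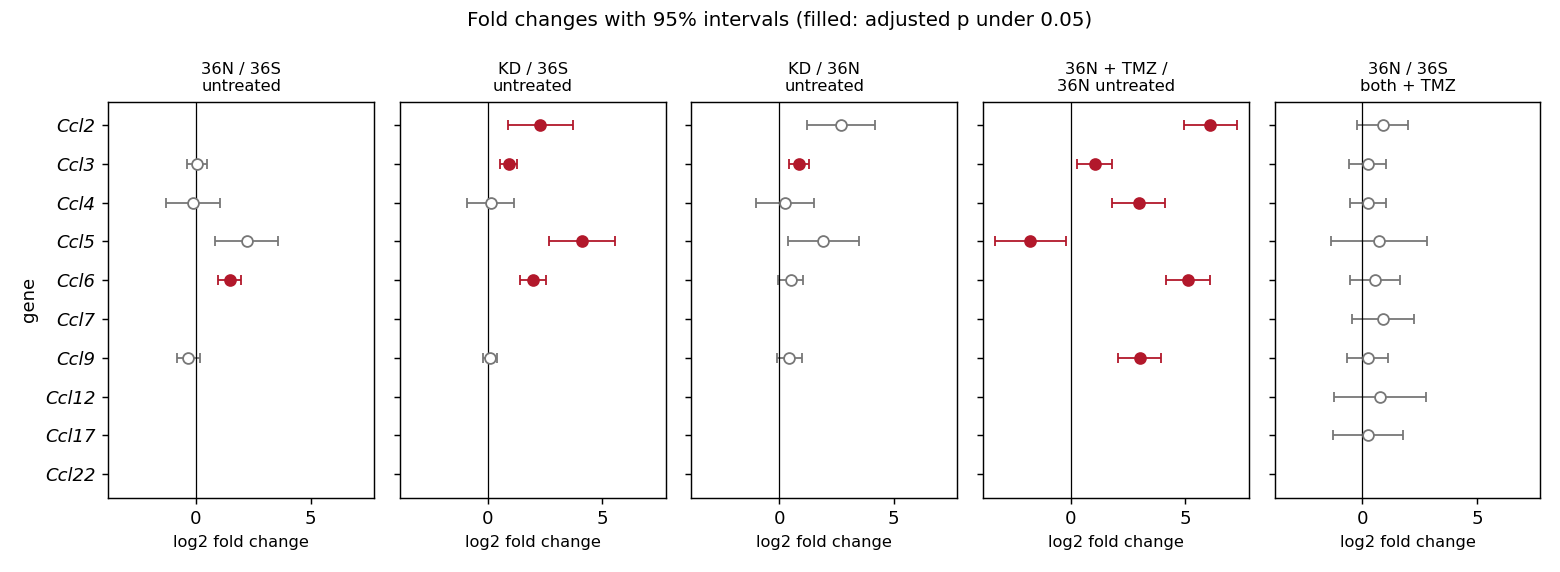
Log2 fold changes from limma-trend with 95% intervals for the members tested in each comparison, filled where the adjusted p was under 0.05. Ccl7 and Ccl17 are left out of the TMZ panel because untreated 36N libraries were at 0, and the TMZ panel holds Ccl2 at 6.08 and Ccl5 at -1.76.

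Per kb of transcript, which adjusts for length alone, Ccl9 had the highest mean of the members in all untreated groups. It averaged 1220 ± 193 normalized counts per kb in KD, 937 ± 326 in 36N and 1125 ± 43.9 in 36S (SD, n = 3 each). The next places differed: in KD they were Ccl5 (919 ± 616), Ccl6 (623 ± 178) and Ccl3 (595 ± 69.1), which overlapped over libraries with each other, as Ccl5 did with Ccl9. In 36N they were Ccl6 (433 ± 111), Ccl3 (331 ± 75.2) and Ccl5 (230 ± 165), each overlapping its neighbour. In 36S they were Ccl3 (315 ± 42.4), Ccl6 (155 ± 35.5) and Ccl5 (42.5 ± 20.0), with ranges that did not overlap. Ccl4, Ccl2 and Ccl22 took the last places in every untreated group, with Ccl2 (43.9 ± 25.1) ahead of Ccl4 (23.4 ± 7.36) in KD, where their ranges overlapped. As shares of the members' summed normalized counts, Ccl9 took 64.7 to 67.1% in KD, 61.0 to 81.2% in 36N and 85.2 to 88.2% in 36S. These levels are those deposited for the untreated groups. Deposited beside the TMZ libraries, the same 36N libraries had Ccl9 at 525 to 1097 per kb and Ccl6 at 416 to 695, which overlap.

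Over the 9 untreated libraries, Ccl5 and Ccl6 were the most alike of the 5 members tested in both tables, with a Pearson r of 0.80 on the log2 scale, and Ccl3 correlated at 0.58 to 0.61 with Ccl5, Ccl6 and Ccl9. For the closest neighbours on the chromosome r was -0.13 (Ccl6 with Ccl9) and 0.15 (Ccl3 with Ccl4), while Ccl6 and Ccl3, 54.8 kb apart, had 0.58. Among 11773 genes, those closest to Ccl5 were Aida (0.96), Sh2d2a (0.95) and Btg2 (0.95), and those closest to Ccl6 were Gng10 (0.98), Ypel3 (0.98) and Adgre4 (0.97). The closest to Ccl3 were Papss1 (0.99), Atf6b (0.97) and Nt5dc2 (0.97), to Ccl9 Ccdc43 (0.96), Dpm2 (0.94) and Vps16 (0.94), and to Ccl4 Pam16 (0.87), Lrrc28 (0.86) and Rrp7a (0.84). These values describe 9 libraries of 3 genotypes that share their group differences.

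With TMZ, 7 members rose in 36N marrow against untreated 36N and 1 fell. Ccl2, Ccl3, Ccl4, Ccl6, Ccl7, Ccl9 and Ccl17 were higher and Ccl5 was lower, among 8 that passed the filter, while Ccl12 and Ccl22 did not pass it. In this comparison most genes were called: 36.3% of 14390 genes were higher, 33.5% lower and 69.7% changed in either direction. The TMZ libraries all lay above the untreated ones for 38.7% of genes, and 74.5% did not overlap in either direction. Ccl2, Ccl7 and Ccl17 passed the filter only through the TMZ libraries, so the count of 7 depends on that filter. Ccl7 and Ccl17, at 0 without TMZ, could pass it only by being higher with TMZ, so their calls are no test of direction. Nor is that of Ccl2, whose untreated libraries could not meet the filter by themselves. With these members set aside, Ccl3, Ccl4, Ccl6 and Ccl9 were called higher and Ccl5 lower. The 6 tested members without a group at 0, Ccl2 included, had a median log2 fold change of 2.99, against 0.05 over all genes of that kind. With Ccl2 set aside the middle log2 fold change is that of Ccl4 (2.97).

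**Figure D3:**
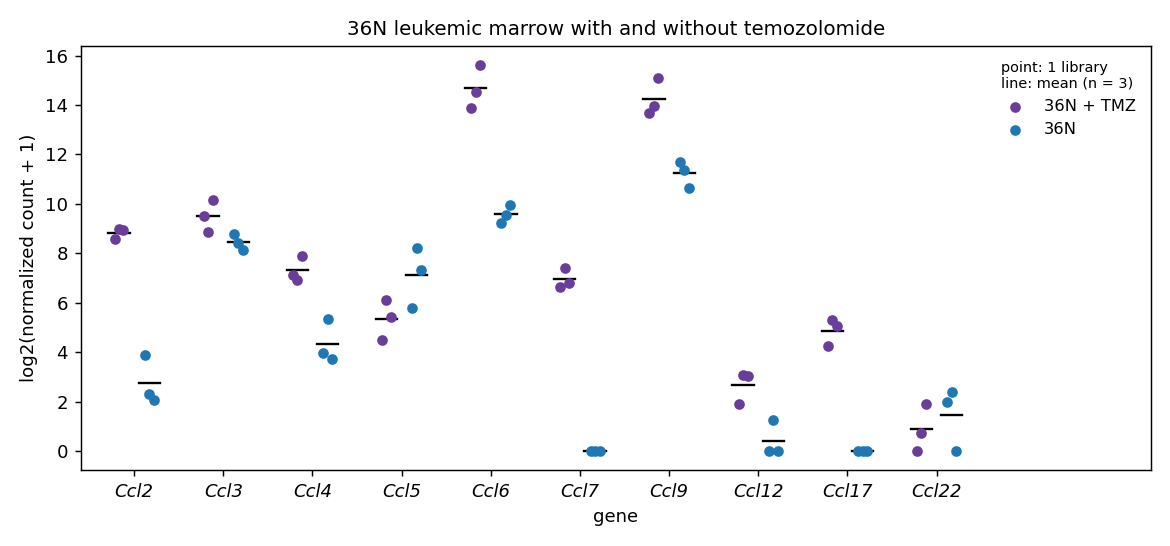
Log2(normalized count + 1) of the 10 members in 36N libraries with TMZ (left of each pair) and without (right), a point per library and a line for the mean (n = 3). Ccl6 lies between 15254 and 50134 normalized counts with TMZ and between 599 and 1001 without, and Ccl5 is the tested member with the lower mean with TMZ.

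Of the CCR2 ligands, Ccl2 had 378, 507 and 498 normalized counts with TMZ (libraries 4, 5 and 6), against 14.0, 3.88 and 3.22 without. The groups lay far apart, with a log2 fold change of 6.08 (SE 0.50, adjusted p = 3.1e-05). The log2 fold change was 5.37 with a pseudocount of 5. Since Ccl2 passed the filter only through the TMZ libraries, its call is no test of direction. Ccl7, another monocyte attractant, had 98.9, 168 and 109.7 normalized counts with TMZ and was listed at 0 in all 3 untreated libraries, so no fold is given. Its direction was fixed by the filter (limma-trend adjusted p = 4.1e-06). The ratio of Ccl7 to Ccl2 was 0.261, 0.331 and 0.220 in the TMZ libraries. Ccl12 had 2.78, 7.53 and 7.20 with TMZ, against 0, 1.37 and 0 without, too low to be tested.

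Of this neighbouring pair, Ccl4 had 139, 121 and 236 normalized counts with TMZ, against 14.7, 39.8 and 12.1 without. The groups did not overlap (log2 fold change 2.97, SE 0.49, adjusted p = 0.0011). Ccl3 had 723, 463 and 1132 with TMZ, against 439, 341 and 282 without. The lowest TMZ library was just above the highest untreated one, with a log2 fold change of 1.05 (SE 0.33, adjusted p = 0.021). This call was lost without untreated library 5 or 6 (adjusted p = 0.059 and 0.071) and, with the filter relaxed to 2 libraries, without TMZ library 4 or 6 (0.053 and 0.054). The ratio of Ccl4 to Ccl3 was 0.192 to 0.262 with TMZ and 0.0336 to 0.117 without.

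Ccl5 had 21.6, 67.5 and 42.2 normalized counts with TMZ, against 54.0, 295 and 159 without. Library 5 with TMZ lay above library 4 without, so the groups overlapped. The log2 fold change was -1.76 (SE 0.66, adjusted p = 0.043), and the call was lost without TMZ library 4 or 6 or untreated library 5 or 6 (adjusted p = 0.072 to 0.14). Without untreated library 4 it was -2.42 (adjusted p = 0.0079). T and NK cell markers were lower with TMZ for 6 of 9 tested, Cd3e was at 0 in all TMZ libraries against 34.7, 67.9 and 55.9 without, and 11 of 13 averaged under 10 with TMZ. Cd3e passed the filter only through the untreated libraries, which fixed its direction. The other 2, Gzmb and Nkg7, rose, and with Gzmb at 7335 ± 1249 normalized counts with TMZ and 16.4 ± 7.40 without (SD, n = 3 each) the list's sum was 6376 to 9051 with TMZ and 260 to 406 without. The part of T and NK cells in the Ccl5 result was not tested.

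The largest levels were those of Ccl6 and Ccl9. Ccl6 had 15254, 23711 and 50134 normalized counts with TMZ, against 599, 745 and 1001 without. Every TMZ library lay far above every untreated one, and the log2 fold change was 5.10 (SE 0.41, adjusted p = 2.8e-05). Ccl9 had 12951, 16146 and 34626 with TMZ, against 3298, 2676 and 1577 without. The groups did not overlap, and the log2 fold change was 3.01 (SE 0.40, adjusted p = 3.5e-04).

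The size of the Ccl9 change depends on the table. The same untreated 36N libraries had 0.893 to 0.897 times as much Ccl9 in this table as in the untreated table, a log2 ratio of -0.16 where the median gene had 0.55. The same TMZ libraries had a log2 ratio of -0.23 between the TMZ table and this one, where the median gene had 0.57. When the values were instead taken from those other tables, each scaled by the median ratio, Ccl9 was 2.85-fold higher with TMZ, against 8.04-fold within the table. The corresponding folds were 25.4 and 34.3 for Ccl6, 74.3 and 67.8 for Ccl2, 9.22 and 7.82 for Ccl4, 1.94 and 2.07 for Ccl3, and 0.269 and 0.295 for Ccl5. The sources used here do not say where these gene-specific ratios come from.

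Of the CCR4 ligands, which attract helper T cells, Ccl17 had 18.1, 38.5 and 32.0 normalized counts with TMZ and was listed at 0 in the 3 untreated libraries. The filter fixed its direction too (limma-trend adjusted p = 3.6e-05). Its neighbour Ccl22 had 0, 0.662 and 2.78 with TMZ, against 2.98, 4.2 and 0 without, and was not tested.

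Together the 10 members summed to 29586, 41230 and 86820 normalized counts with TMZ, against 4422, 4106 and 3033 without. Ccl6 took 51.6 to 57.7% of the sum with TMZ and 13.5 to 33% without, and Ccl9 took 39.2 to 43.8% with TMZ and 52.0 to 74.6% without. The ratio of Ccl6 to Ccl9 was 1.18 to 1.47 with TMZ and 0.182 to 0.635 without. Deposited beside 36S, the same libraries had ratios of 1.76 to 2.19 with TMZ and 0.130 to 0.453 without. The sizes of these shares and ratios thus depend on the table. Per kb of transcript the order with TMZ was Ccl6 (20625 ± 12636 normalized counts per kb), Ccl9 (7066 ± 3893), Ccl3 (1009 ± 441), Ccl2 (567 ± 88.3), Ccl4 (250 ± 94.0), Ccl7 (157 ± 46.5), Ccl5 (82.2 ± 43.2), Ccl17 (57.5 ± 20.2), Ccl12 (10.9 ± 4.94) and Ccl22 (0.517 ± 0.655; SD, n = 3 each). Neighbours in this order overlapped over libraries except Ccl9 with Ccl3, Ccl2 with Ccl4, Ccl17 with Ccl12 and Ccl12 with Ccl22.

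**Figure D4:**
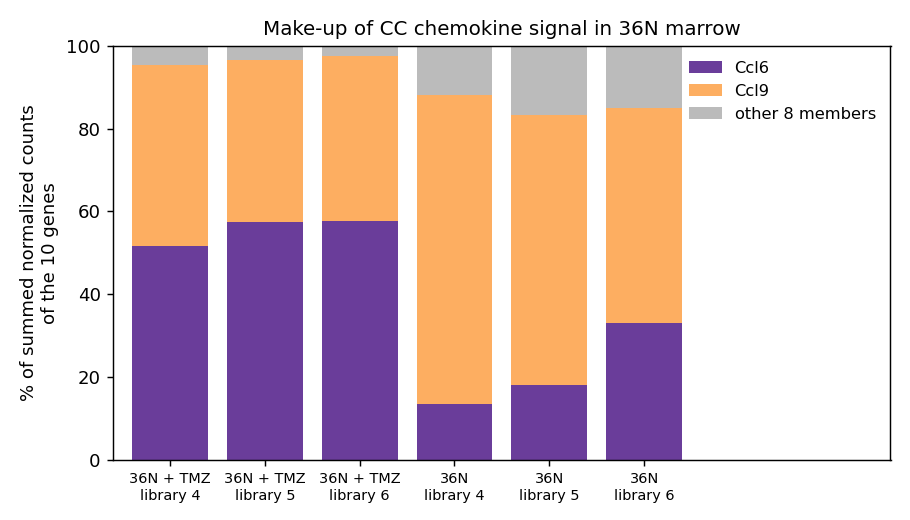
Share (%) of the summed normalized counts of the 10 members taken by Ccl6, Ccl9 and the other 8 in each 36N library, with TMZ on the left and without on the right. Ccl6 takes 51.6 to 57.7% with TMZ and 13.5 to 33% without.

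Markers of other cells also moved with TMZ, where 36.3% of all genes were called higher and 33.5% lower. Mast cell and basophil markers rose for 11 of 11 tested, with sums of 107999 to 259510 with TMZ and 640 to 1826 without, and Mcpt4, Tpsb2, Tpsab1 and Fcer1a were at 0 in all untreated libraries. A marker at 0 throughout 1 group could pass the filter only through the other group, so its call is no test of direction. Of the 11 tested, 8 had no group at 0, with a median log2 fold change of 8.77. Monocyte and macrophage markers rose for 5 and fell for 4 of 12, with sums of 25718 to 68481 with TMZ and 81118 to 93010 without. Dendritic cell markers rose for 1 and fell for 5 of 8 (919 to 1609 with TMZ, 3703 to 4500 without), B and plasma cell markers fell for 6 of 6, and neutrophil and eosinophil sums were 39333 to 74168 and 1134 to 4559 with TMZ against 57658 to 67151 and 296 to 546 without. The part of these cells in the rise of Ccl2, Ccl3, Ccl4, Ccl6, Ccl7, Ccl9 and Ccl17 was not tested.

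The receptors changed in both directions with TMZ, in a comparison where 36.3% of all genes were called higher, 33.5% lower and 69.7% in either direction. Of 10 CC receptors tested 5 rose and 3 fell: Ackr1, an atypical receptor that binds many chemokines without signalling, rose most (137 ± 39.1 with TMZ, 1.25 ± 2.16 without; log2 fold change 6.32, adjusted p = 9.2e-05), and Ackr4, a scavenger of other CC ligands, fell most (0.227 ± 0.393 with TMZ, 17.9 ± 6.03 without; -3.95, adjusted p = 0.000125). Ccr9, the receptor of Ccl25, fell (-2.99, adjusted p = 3.9e-04), and Ccr3, the eosinophil receptor, rose (2.58, adjusted p = 0.018). Ccr1, a receptor of Ccl3, Ccl5, Ccl6 and Ccl9, rose (0.63, adjusted p = 0.018). Of 3 other CC ligands tested, Ccl24, an eosinophil attractant, rose (142 ± 135 with TMZ, 2.14 ± 3.03 without; 5.18, adjusted p = 0.0044; SD, n = 3 each). Ackr1 and Ccl24 passed the filter only through the TMZ libraries, and Ackr4 only through the untreated ones. Their calls are thus no test of direction, and the counts depend on that filter.

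Ligands of the CXC, CX3C and XC classes rose for 5 and fell for 2 of 10 tested with TMZ. The counts in this paragraph stand beside 36.3% of all genes called higher, 33.5% lower and 69.7% in either direction. Pf4, platelet factor 4, rose (log2 fold change 8.97, adjusted p = 4.0e-05), as did Ppbp (7.83, adjusted p = 1.7e-04), while Cxcl3, a neutrophil attractant, had 226 ± 86.7 normalized counts with TMZ and was listed at 0 without. Cxcl12 fell (0.720 ± 0.970 with TMZ, 601 ± 78.3 without; -8.59, adjusted p = 3.8e-06; SD, n = 3 each). Their receptors rose for 1 and fell for 4 of 6, with Cxcr2, the neutrophil receptor, higher (log2 fold change 2.0, adjusted p = 0.0044). Cx3cr1 fell (-2.27, adjusted p = 0.0066), as did Cxcr4, the receptor of Cxcl12 (-1.37, adjusted p = 7.4e-04), and Cxcr6, the receptor of Cxcl16, was listed at 0 with TMZ and had 12.8 ± 2.61 without. Cytokine and NF-kappaB genes rose for 5 and fell for 4 of 18. Il6 rose (7.77, adjusted p = 1.7e-05), Il4 had 123 ± 40.3 with TMZ and was listed at 0 without, Irf4 fell (-5.20, adjusted p = 3.7e-04), and Csf1, the macrophage growth factor, rose (4.14, adjusted p = 3.6e-06). The NF-kappaB subunit genes Nfkb1, Rel and Rela fell (-0.59, -2.46 and -0.93, with adjusted p of 0.0047, 8.0e-06 and 6.9e-04). Cxcl3 and Il4 passed the filter only through the TMZ libraries, and Cxcl12 and Cxcr6 only through the untreated ones. The filter fixed the direction of these genes, and the counts above depend on it.

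With TMZ in both genotypes, no member was called between 36N and 36S. Of the 9 members tested 0 were called, with adjusted p of 0.9998 each, and 0 of 14246 genes tested were called (0% in either direction), 191 of them and 0 members having an unadjusted p under 0.05. On the log2 scale the estimates of all 9 lay above 0, with a median log2 fold change of 0.55 against 0.01 over all genes. The mean count of Ccl17 was lower in 36N (46.5 against 48.0). For Ccl3, Ccl4, Ccl5, Ccl9 and Ccl17 the sign turned on leaving out 1 library. The intervals of the 9, given below, are wide and do not show that the genotypes are alike. All 10 members overlapped between the genotypes, whereas 2.9% of genes lay higher in every 36N library, 1.86% lower and 4.76% in either direction.

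**Figure D5:**
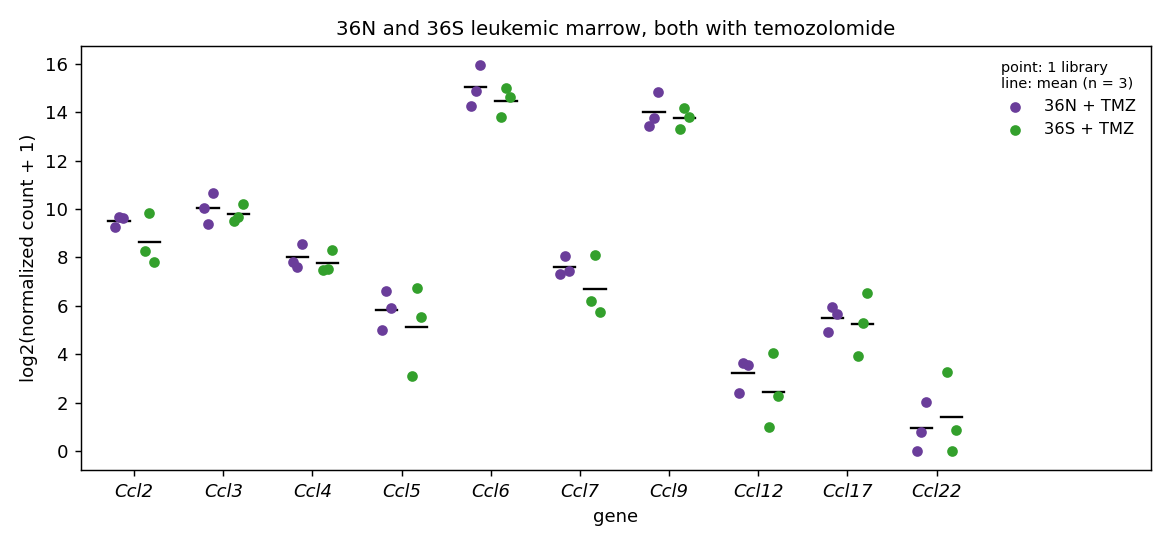
Log2(normalized count + 1) of the 10 members in TMZ libraries of 36N (left of each pair) and 36S (right), a point per library and a line for the mean (n = 3). The genotypes overlap for every member, and Ccl2 spans 613 to 814 normalized counts in 36N and 224 to 906 in 36S.

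Ccl2 had 613, 814 and 790.2 normalized counts in 36N with TMZ, against 310.4, 906 and 224 in 36S libraries 1, 2 and 3 with TMZ. Ccl7 followed the same library order in 36S, with 157, 265 and 171 in 36N, against 73.4, 272 and 53.1 in 36S. Library 2 was the highest of 36S for both. The log2 differences were 0.88 (95% interval -0.23 to 1.99) for Ccl2 and 0.91 (-0.45 to 2.27) for Ccl7.

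Ccl6 had 19596, 30188 and 63114 normalized counts in 36N with TMZ, against 14235, 32922 and 25643 in 36S. Ccl9 had 11157, 13784 and 29229 in 36N, against 10266, 18621 and 14254 in 36S. Library 6 was the highest of 36N for both genes. The log2 differences were 0.55 (95% interval -0.55 to 1.64) for Ccl6 and 0.24 (-0.65 to 1.14) for Ccl9.

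Ccl3 had 1052, 667 and 1615 normalized counts in 36N with TMZ, against 732, 806 and 1196 in 36S (log2 difference 0.23, 95% interval -0.56 to 1.02). Ccl4 had 226, 196 and 378 in 36N, against 179.8, 183 and 312 in 36S (0.23, -0.55 to 1.02). The ranges of both genes overlap, and the highest library of each is a 36N one. Ccl5 had 30.9, 95.8 and 59.3 in 36N, against 7.48, 105 and 45.7 in 36S (0.72, -1.37 to 2.80). Ccl17 had 28.9, 60.6 and 49.9 in 36N, against 14.3, 38.6 and 91.0 in 36S (0.25, -1.28 to 1.78). The widest intervals, those of Ccl5, Ccl17 and Ccl12, go with a wide spread in 36S. Ccl12 had 4.29, 11.5 and 10.9 in 36N, against 0.983, 15.6 and 3.90 in 36S (0.76, -1.25 to 2.77), and Ccl22 was at 0, 0.725 and 3.01 in 36N, against 8.70, 0 and 0.838 in 36S, too low to be tested.

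Every gene of the receptor, ligand and cytokine lists was likewise not called between the genotypes with TMZ (0 of 8 CC receptors, 0 of 3 other CC ligands, 0 of 8 CXC, CX3C and XC ligands, 0 of 6 of their receptors and 0 of 18 cytokine and NF-kappaB genes), and no marker of the 7 cell type lists was called. The lowest p-values of each list were those of Ccrl2, Ccl25, Cxcl3, Cxcr4 and Il6, with log2 differences of -0.44, -0.31, 0.61, -0.32 and 0.55 and adjusted p of 0.9998. Mast cell and basophil markers summed to 157068 to 379130 in 36N and 151927 to 330089 in 36S with TMZ. Whether the difference of 36N from 36S itself changed with TMZ was tested as an interaction, with each genotype difference taken within 1 table. Of the 5 members tested 0 were called, where 0.333% of 12324 genes were called (41 genes, and 861 with an unadjusted p under 0.05, among them 0 members). The estimates were -0.93 (95% interval -2.14 to 0.28, adjusted p = 0.84) for Ccl6, -1.49 (-4.10 to 1.12, 0.92) for Ccl5, 0.57 (-0.50 to 1.64) for Ccl9, 0.36 (-0.97 to 1.69) for Ccl4 and 0.17 (-0.74 to 1.08) for Ccl3 on the log2 scale. The effect of TMZ within 36S was not tested, since no table used here holds both of its groups.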

How the data were processed

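RNA was isolated with a column kit and libraries were made with poly(A) selection, per the labels. The authors deposited normalized counts per gene (a signal, not whole reads) in 4 tables. The submitters' processing notes name Salmon, DESeq2 and mm10, with no versions or roles. Whether counting used strand was not stated there. The columns taken as 36S, headed WT in both untreated tables, were identical between them (largest difference 0), so their libraries were compared as normalized together. The other tables were tested only within themselves, because values of the same libraries differed between tables by gene-specific ratios.

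Values were tested as log2(normalized count + 1) with limma-trend (limma 3.58.1, R 4.3.3) on the groups compared, for genes of at least 10 in at least 3 libraries, with Benjamini-Hochberg adjustment over all genes tested. Fold changes on this scale understate those of low genes. The fit was tested on simulated data. All 10 members were named whatever their values. Of each of 5 pathway lists, up to 4 called genes with the largest change were named, or those of lowest p where none was called, and Ccr1, Nfkb1, Rel and Rela with TMZ were named after their values were seen. Markers came from 7 cell type lists. The members and lists were chosen with earlier results of these data known. Sequences came from GENCODE M21 and RefSeq, where all 10 members matched the first and 6 had a promoter entry in the second. Alternatives were other pseudocounts (0.5 and 5), filters (none and 50), scalings (equal totals, quantile), a robust trend, a replicate block and leaving out each library. A relaxed filter and values set across tables were added after seeing the data.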

Additional observations from a re-analysis of the deposited data

How the results depend on the processing

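Under other pseudocounts, filters, quantile normalization and a robust trend, the calls of members kept their side of the threshold except that Ccl2 in KD and Ccl17 with TMZ fell to a filter of 50 and Ccl12 with TMZ was called without a filter. Equal totals left 0 members called for KD against 36N, gave a log2 difference of -0.013 for Ccl9 in KD against 36S, and moved the median log2 fold change of all genes to -0.09 for TMZ, against 0.06. A filter of 50 left 27 interaction calls over all genes, against 41. Leaving out 1 library at a time gave 1 to 2 members called for 36N against 36S, 3 to 4 for KD against 36S, 0 to 2 for KD against 36N and 5 to 8 for TMZ in 36N. Ccl7 and Ccl17 drop out of the last by construction, since a filter of 3 libraries cannot be met with 2 TMZ libraries. With the filter in 2 libraries the ranges were 0 to 2 for KD against 36N and 6 to 8 for TMZ. Calls over all genes ranged over 188 to 508 (599 with all libraries), 591 to 2051 (1503), 116 to 1986 (425), 0 to 1 (0, 36N against 36S with TMZ) and 8 to 34 (41, interaction).

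Of the fold changes that changed sign, none was called. Leaving out 1 library at a time, the log2 difference ran over -0.11 to 0.21 for Ccl3 and -0.62 to 0.19 for Ccl4 in 36N against 36S, -0.063 to 0.40 for Ccl4 and -0.019 to 0.18 for Ccl9 in KD against 36S, and -0.054 to 0.53 for Ccl4 in KD against 36N. With the filter in 2 libraries the values below 0 were -0.038 for Ccl4 without KD library 8, -0.063 for Ccl4 without 36S library 1, -0.019 for Ccl9 without KD library 9 and -0.054 for Ccl4 without 36N library 6. With TMZ it ran over -0.087 to 0.55 for Ccl3, -0.046 to 0.49 for Ccl4, -0.30 to 1.52 for Ccl5, -0.17 to 0.52 for Ccl9 and -0.41 to 0.88 for Ccl17 in 36N against 36S. For Ccl3 in the interaction it ran over -0.14 to 0.49.

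Same-numbered libraries of 36N with and without TMZ had correlations of deviations of 0.03, 0.05 and 0.13, and those of 36S -0.07, 0.04 and 0.01. Differently numbered libraries ran over -0.12 to 0.09 in 36N and -0.09 to 0.06 in 36S. The titles with TMZ repeat the untreated titles with TMZ added. Such low correlations, taken across a treatment that moved most genes, cannot decide whether same-numbered libraries share an origin. With the number as a replicate block, 8 members and 9985 genes were called for TMZ in 36N, and 0 members and 41 genes for the interaction. With 3 libraries a group and unknown read depth, levels near 0, as for Ccl12 and Ccl22, cannot be resolved. The cause of the calls lost or gained on leaving out a library was not tested.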
